A study of Homo sapiens with 60 samples.

Results

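The comparison set 3 libraries of MDA-MB-231 cells treated with BAY2506856 at 300 nM for 24 h against 3 libraries of the same cells at 100 nM for 24 h. The libraries were taken by the compound, dose and time in their column names, and they make up 6 of the 60 libraries of the series. MDA-MB-231 is an established human breast cancer line of the triple-negative kind, which lacks the oestrogen and progesterone receptors and has no ERBB2 amplification. BAY2506856 is known here by its code only, and the labels give neither its target nor a genetic change in the cells. Beside these 6 libraries stood 3 libraries at 1000 nM for 24 h, 3 at 300 nM and 3 at 100 nM for 6 h, and 6 of the vehicle DMSO at 24 h. The series design text names a harvest at 24 h alone, whereas the sample labels also give earlier times. The labels do not say whether the libraries of a group came from separate cultures. P-values therefore measure the spread between libraries of a group, pooled over the series, which may be technical. Levels are in FPKM, fragments per kilobase of transcript scaled to library size, and RNA came from whole cultures, so fewer cells of a kind and less RNA per cell cannot be told apart.

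YAP1 and TAZ are coactivators that bind TEAD transcription factors in the nucleus and switch on genes such as CTGF, CYR61 and ANKRD1. In MDA-MB-231 cells the pathway is known to be active. E2F factors switch on the genes that load the MCM helicase onto origins and copy DNA, as cells pass from G1 into S phase.

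Reads recovered from the values numbered 86.5, 1.89 and 56.7 M in replicates 1, 2 and 3 at 300 nM, and 9.52, 13.8 and 14.4 M in replicates 1, 2 and 3 at 100 nM. Replicate 2 at 300 nM was the shallowest of the 6 and also belonged to a second library type, seen in 13 of the 60 libraries, in which 5 pseudogenes were high and 5 others low. An index of these 10 pseudogenes was 5.09 in that library and -2.15 to -0.84 in the 41 libraries of the first type, which include the other 5. Among the other groups used, the second type also held 1000 nM 24 h replicates 1 and 3, DMSO 24 h replicate 2 and 300 nM 6 h replicate 1. The labels name no such type. Markers of the line were high in all 6 libraries, with VIM at 472 to 506 FPKM and CAV1 at 226 to 263 FPKM, while ESR1 did not exceed 0.003 FPKM and PGR 0.005 FPKM. EPCAM, listed as low in this line, stood at 7.11 to 10.6 FPKM. Of the defining markers of other cell types, THY1 of fibroblasts and CD3E of T cells were listed at 0 in all 6 libraries, and PTPRC of leukocytes did not exceed 0.034 FPKM. Other markers of these kinds were above 0 in every library. COL1A2 of fibroblasts stood at 4.14 to 6.21 FPKM and PDGFRB at 1.07 to 1.51 FPKM. CD14 of leukocytes stood at 0.864 to 2.83 FPKM and CSF1R at 1.98 to 2.74 FPKM. ESAM of endothelial cells stood at 15.3 to 22.0 FPKM, while VWF did not exceed 0.021 FPKM and CDH5 0.012 FPKM.

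More genes were lower than higher at 300 nM, against 100 nM. Of 15866 genes tested, 56 were higher at 300 nM (0.353%) and 129 were lower (0.813%) at an adjusted p under 0.05 (limma, Benjamini-Hochberg). The median log2 change was 0.41 among the genes that rose and -0.51 among those that fell, beside -0.005 over all genes tested. A change of at least 2-fold was seen in 11 of the called genes, of which 10 fell and 1, RHOB, rose. In 184 of the 185 called genes the 3 libraries at 300 nM did not overlap the 3 at 100 nM, which held for 18.1% of all genes tested. The calls rest on a spread shared by all 60 libraries. A fit to the 6 libraries alone called 4 genes, CYR61, CTGF, DKK1 and ANKRD1. Leaving out each of the 6 libraries in turn gave 122 to 167 called genes, with the low end without 100 nM replicate 3, and 83 genes (20 higher, 63 lower) were called every time. Without replicate 2 at 300 nM 115 of the 185 calls were kept (26 higher, 89 lower), and among libraries of the first type alone 847 genes passed, with 180 of the 185 among them.

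Targets of YAP1 and TAZ were among the deepest falls. CYR61, which codes for a secreted matricellular protein, stood at 17.3, 14.2 and 17.3 FPKM in the 300 nM libraries, against 64.4, 66.7 and 62.3 FPKM in the 100 nM libraries. The groups lay far apart and varied little. The log2 change was -1.96 ± 0.08 (n = 3 each, adjusted p = 2.71e-23), or 3.90-fold lower. Here and below the ± of a log2 change is limma's SE, from the spread shared by all 60 libraries. CTGF, its close relative, stood at 9.04, 9.76 and 8.61 FPKM at 300 nM, against 28.5, 27.0 and 29.2 FPKM at 100 nM, a log2 change of -1.58 ± 0.08 (adjusted p = 2.59e-21). ANKRD1, an ankyrin repeat protein used as a reporter of the pathway, stood at 13.9, 15.4 and 12.6 FPKM at 300 nM and 39.9, 39.0 and 44.3 FPKM at 100 nM (log2 change -1.53 ± 0.13, adjusted p = 5.45e-12). In both genes every 300 nM library lay below every 100 nM library.

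The 300-base windows around the start sites of CTGF and ANKRD1 are shown because these genes fell together and both hold the TEAD word GGAATG, here in capitals. They come from RefSeq on GRCh38.p14, run 5′ to 3′ on the gene's strand from 250 bases before the start to 50 after it, and lie at chr6:131951323-131951622 (minus strand; RefSeq symbol CCN2) and chr10:90921038-90921337 (minus strand).
CTGF: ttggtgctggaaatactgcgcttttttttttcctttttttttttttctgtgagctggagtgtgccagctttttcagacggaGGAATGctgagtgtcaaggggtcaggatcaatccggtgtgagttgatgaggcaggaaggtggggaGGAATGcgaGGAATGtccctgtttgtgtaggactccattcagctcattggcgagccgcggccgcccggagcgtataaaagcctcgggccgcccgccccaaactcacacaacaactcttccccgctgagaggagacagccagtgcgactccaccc
ANKRD1: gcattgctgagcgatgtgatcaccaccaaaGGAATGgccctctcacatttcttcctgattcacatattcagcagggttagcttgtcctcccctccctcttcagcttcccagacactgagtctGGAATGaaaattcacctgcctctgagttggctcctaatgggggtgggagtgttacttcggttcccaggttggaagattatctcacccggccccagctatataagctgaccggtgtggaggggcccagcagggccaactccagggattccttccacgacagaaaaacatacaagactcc
The word occurs 3 times in the CTGF window and 2 times in the ANKRD1 window, counting both strands. It occurred in 7 of the 16 YAP1/TAZ targets with a window (43.8%), 13 of the 102 genes that fell (12.7%), 6 of the 49 that rose (12.2%) and 1005 of 9357 tested genes (10.7%), beside 14.0% of all 27305 windows. These matches describe letters and were set against no binding data. CYR61 had no entry in the RefSeq table of windows, so the word could not be looked for there.

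Of the 22 YAP1/TAZ targets measured, 7 fell and none rose, where 0.813% of all genes fell. The log2 change was below 0 in 17, and the median was -0.28. The members were listed with the pathway's fall in these cells already known, so the count is no independent evidence of its direction. AMOTL2, an inhibitor of YAP1 that is itself a target, stood at 5.50, 3.09 and 5.58 FPKM at 300 nM and 9.84, 8.80 and 9.32 FPKM at 100 nM (log2 change -0.95 ± 0.21, adjusted p = 0.00493). Its lowest value came from replicate 2 at 300 nM, and without that library its adjusted p was 0.175. AXL, a receptor tyrosine kinase, stood at 94.7, 71.2 and 94.9 FPKM at 300 nM and 120, 125 and 121 FPKM at 100 nM (log2 change -0.50, adjusted p = 0.00407). Without the same library its adjusted p was 0.162. F3, tissue factor, fell by 0.41 on the log2 scale (adjusted p = 0.00154), and CRIM1, a membrane protein that binds BMPs, by 0.33 (adjusted p = 0.0165, which reached 0.0885 without 100 nM replicate 1). AJUBA, a LIM protein that restrains the Hippo kinases and was on no list, fell by 0.81 (adjusted p = 0.000162), with 8.30, 6.91 and 8.62 FPKM at 300 nM and 14.6, 13.9 and 14.2 FPKM at 100 nM.

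**Figure D1:**
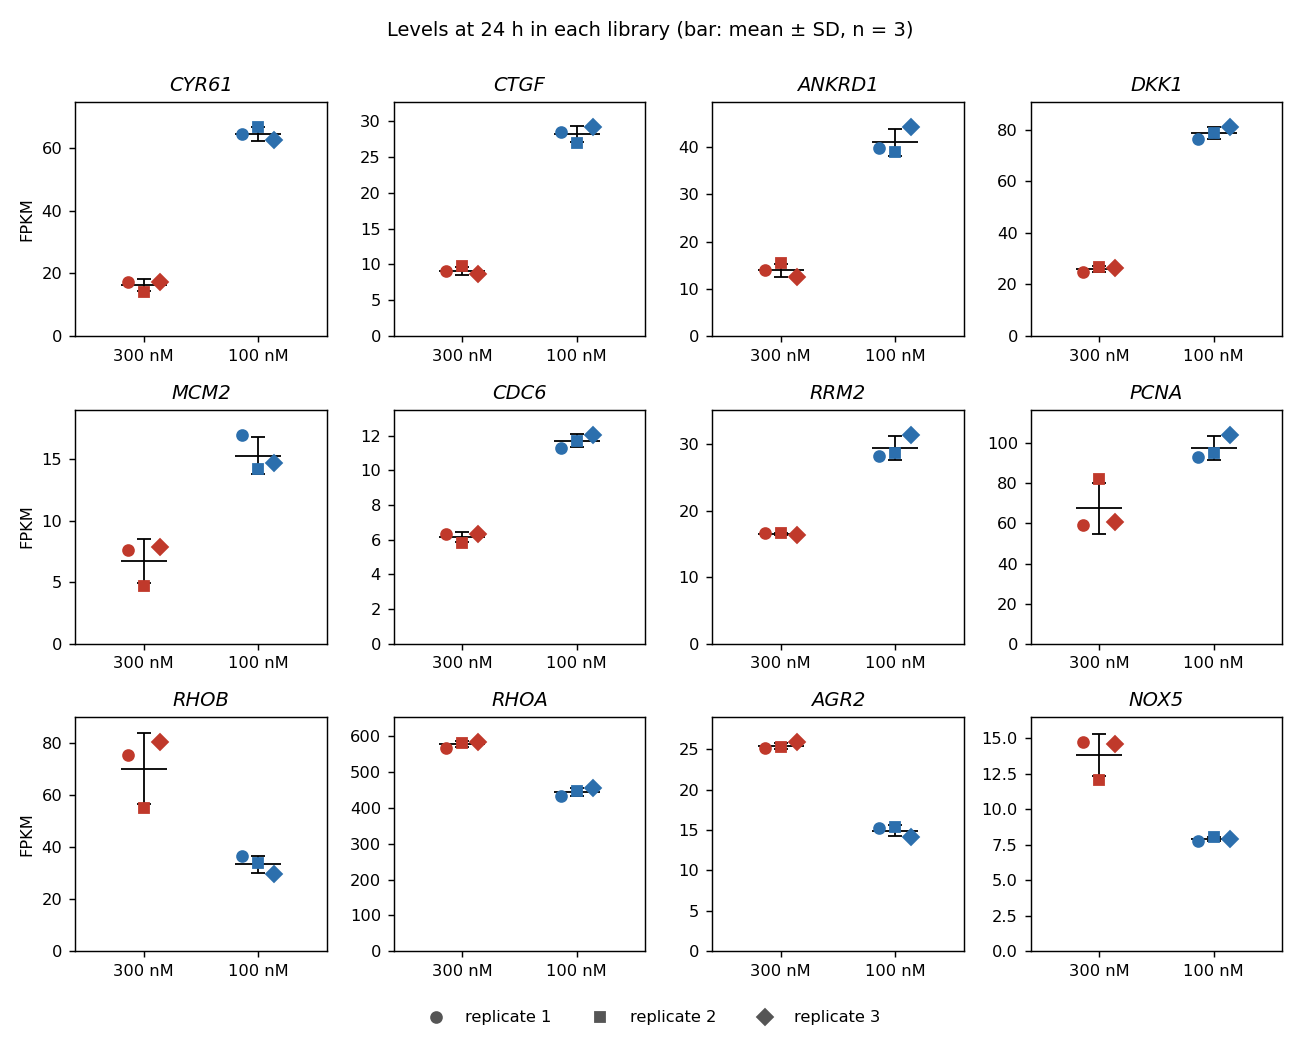
FPKM of 12 genes in each library at 300 nM and 100 nM for 24 h, 1 panel a gene; points are libraries (circle, square and diamond for replicates 1, 2 and 3) and bars are means with SD (n = 3). CYR61 lies between 14.2 and 17.3 FPKM at 300 nM and between 62.3 and 66.7 FPKM at 100 nM, RHOB has the reverse order, and replicate 2 at 300 nM stands apart from the other 2 in MCM2, PCNA and RHOB.

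Several secreted proteins fell beside them. DKK1, an inhibitor of Wnt signalling, stood at 24.8, 26.6 and 26.5 FPKM at 300 nM and 76.3, 78.9 and 81.1 FPKM at 100 nM (log2 change -1.58 ± 0.08, adjusted p = 2.35e-21). FST, which binds and blocks activin, stood at 1.27, 0.915 and 1.49 FPKM at 300 nM and 3.20, 2.67 and 3.51 FPKM at 100 nM (log2 change -1.08 ± 0.10, adjusted p = 2.48e-11). THBS1, thrombospondin 1, fell by 0.75 on the log2 scale (adjusted p = 2.72e-10). TIMP3, an inhibitor of matrix metalloproteinases, rose by 0.28 (adjusted p = 0.000233).

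Genes that load and fire replication origins fell together. Of 20 measured, 14 passed the test, all lower at 300 nM, where 0.813% of all genes did, and the median log2 change was -0.67 with all 20 below 0. They were the helicase subunits MCM2 to MCM7, the loader CDC6, the origin recognition subunit ORC1, the firing factors MCM10 and CDC45, and all 4 GINS subunits. MCM2 stood at 7.60, 4.66 and 7.89 FPKM at 300 nM and 17.0, 14.2 and 14.7 FPKM at 100 nM (log2 change -1.16 ± 0.17, adjusted p = 1.35e-05). CDC6 stood at 6.31, 5.84 and 6.31 FPKM at 300 nM and 11.3, 11.7 and 12.1 FPKM at 100 nM (log2 change -0.88 ± 0.08, adjusted p = 2.48e-11). MCM3 stood at 39.2, 41.4 and 38.8 FPKM at 300 nM and 66.6, 63.8 and 64.0 FPKM at 100 nM (log2 change -0.70 ± 0.06, adjusted p = 2.73e-12). In these genes no library at 300 nM reached the lowest at 100 nM, and MCM2 was lowest in replicate 2. MCM6 fell by 0.79 on the log2 scale, MCM4 by 0.69, MCM7 by 0.66, CDC45 by 0.83, MCM10 by 0.83 and ORC1 by 0.82, with adjusted p-values of 7.7e-06 or less. MCM5 fell by 0.65 (adjusted p = 0.0463), a call that was lost whichever of the 6 libraries was left out. GINS3 fell by 0.52 (adjusted p = 0.0234), a call lost without replicate 2 at 300 nM (adjusted p = 0.553) and without replicates 1 or 3 at 100 nM, and GINS1 by 0.48 (adjusted p = 0.00456, which reached 0.0814 without 100 nM replicate 3 and was also lost without 300 nM replicate 3). CDT1, the other loader, stood at 2.13, 0.814 and 2.44 FPKM at 300 nM and 4.16, 3.54 and 3.99 FPKM at 100 nM, and did not pass (log2 change -1.02 ± 0.41, adjusted p = 0.408).

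The windows of MCM3 (chr6:52284693-52284992, minus strand) and MCM6 (chr2:135876394-135876693, minus strand), from the same RefSeq table and build, are shown for the E2F words TTTCCCGC, TTTCGCGC, TTTGCCGC and TTTGGCGC, searched on both strands and in capitals.
MCM3: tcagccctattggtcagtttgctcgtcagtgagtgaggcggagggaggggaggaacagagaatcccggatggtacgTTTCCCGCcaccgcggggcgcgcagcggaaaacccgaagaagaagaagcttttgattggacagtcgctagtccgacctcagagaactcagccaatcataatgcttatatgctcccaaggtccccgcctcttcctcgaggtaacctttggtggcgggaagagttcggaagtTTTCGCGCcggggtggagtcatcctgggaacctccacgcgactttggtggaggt
MCM6: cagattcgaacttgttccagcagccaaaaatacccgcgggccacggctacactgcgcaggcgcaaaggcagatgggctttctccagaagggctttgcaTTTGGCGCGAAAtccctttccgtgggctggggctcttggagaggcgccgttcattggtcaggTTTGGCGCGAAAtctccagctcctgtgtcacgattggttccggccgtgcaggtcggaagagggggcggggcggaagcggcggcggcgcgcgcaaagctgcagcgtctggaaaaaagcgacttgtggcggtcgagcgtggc
The MCM3 window holds 2 matches and the MCM6 window 4, which overlap in pairs. Match numbers were read for a short chosen set of genes only, and the others of that set that fell held fewer than MCM6. MCM2 and MCM7 had 2 matches each, CDC6 and UHRF1 had 1 each, and FEN1, RRM2, ORC1 and CDC45 had 0. An E2F word occurred in 20 of the 46 genes of the origin and fork lists with a window (43.5%), in 23 of the 102 genes that fell (22.5%) and in 1 of the 49 that rose (2.04%). The share was 5.71% of the 9357 tested genes with a window (534 genes) and 3.33% of all windows.

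Genes of the replication fork and of nucleotide supply moved the same way. Of 32 tested, 13 fell and none rose, where 0.813% of all genes fell. The median log2 change was -0.44 with 31 below 0. RRM2, a subunit of ribonucleotide reductase, stood at 16.6, 16.7 and 16.3 FPKM at 300 nM and 28.2, 28.7 and 31.5 FPKM at 100 nM (log2 change -0.81 ± 0.07, adjusted p = 2.42e-11). FEN1, the flap endonuclease of lagging-strand synthesis, stood at 20.2, 19.1 and 20.9 FPKM at 300 nM and 34.7, 34.6 and 35.0 FPKM at 100 nM (log2 change -0.78 ± 0.05, adjusted p = 2.47e-15). Both genes varied little within either dose. PCNA, the sliding clamp, stood at 59.3, 82.4 and 60.9 FPKM at 300 nM and 93.4, 95.4 and 104 FPKM at 100 nM (log2 change -0.54 ± 0.08, adjusted p = 1.9e-05), with its highest 300 nM value in replicate 2. UHRF1, which guides maintenance methylation to new DNA, fell by 1.05 on the log2 scale (adjusted p = 0.000127), and TYMS, thymidylate synthase, by 0.51 (adjusted p = 1.15e-05).

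Of 20 cyclins, CDKs and E2F factors of the G1/S transition, 7 fell and none rose, where 0.813% of all genes fell. CCNE2, cyclin E2, stood at 3.14, 3.95 and 2.94 FPKM at 300 nM and 5.99, 6.29 and 6.38 FPKM at 100 nM (log2 change -0.81 ± 0.17, adjusted p = 0.00249). CDC25A, a phosphatase that frees CDK2, fell by 0.74 (adjusted p = 1.64e-07), and E2F8, a repressor of the E2F family, by 0.54 (adjusted p = 8.15e-05). E2F1 stood at 15.4, 11.5 and 16.1 FPKM at 300 nM and 26.7, 26.5 and 24.5 FPKM at 100 nM, without overlap, yet did not pass (log2 change -0.85 ± 0.24, adjusted p = 0.0656). None of 8 CDK inhibitors and pocket proteins passed. Among libraries of the first type alone 1 was higher and 1 lower, beside 272 higher and 575 lower of all 15866 genes. CDKN1B, the inhibitor p27, stood at 12.6, 14.7 and 13.1 FPKM at 300 nM and 12.5, 12.3 and 12.7 FPKM at 100 nM (log2 change 0.10 ± 0.11, adjusted p = 0.917).

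Fewer genes of the later steps of the cycle passed, where 0.813% of all genes fell. Of 41 mitosis and G2/M genes, 2 fell and none rose, 38 had a log2 change below 0, and the median was -0.17 with all libraries and -0.29 without 300 nM replicate 2. KIF2C, a kinesin that takes microtubules apart, fell by 0.30 (adjusted p = 0.00516, and 0.0707 without 100 nM replicate 2), and AURKA, a spindle kinase, by 0.24 (adjusted p = 0.0382, which reached 0.324 without 100 nM replicate 3). The proliferation marker MKI67 stood at 21.5, 24.9 and 19.7 FPKM at 300 nM and 28.7, 24.1 and 25.7 FPKM at 100 nM, which overlap (log2 change -0.25 ± 0.15, adjusted p = 0.797). Among 26 homologous recombination and repair genes 3 fell, EXO1, RAD54L and DNA2, with a median of -0.40 and 25 below 0. EXO1, a resection nuclease, stood at 3.17, 5.38 and 3.03 FPKM at 300 nM and 6.75, 5.94 and 7.47 FPKM at 100 nM (log2 change -0.76 ± 0.16, adjusted p = 0.0031, which reached 0.0625 without 300 nM replicate 3). RAD54L lost its call whichever of the 6 libraries was left out. All 32 ribosome biogenesis genes had a log2 change below 0, with a median of -0.22, while 1, RRP1B, passed (log2 change -0.30, adjusted p = 0.00292).

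These counts were larger among libraries of the first type alone, where 19 of the 20 origin genes, 25 of the 32 fork genes, 11 of the 20 G1/S genes, 26 of the 41 mitosis genes, 19 of the 26 recombination genes and 11 of the 32 ribosome biogenesis genes passed, all lower. Calls were more frequent in general there, with 575 of all 15866 genes lower, beside 129 in the main fit. With replicate 2 at 300 nM left out of the full set, 12 origin, 18 fork, 5 G1/S, 2 mitosis, 3 recombination and 1 ribosome biogenesis gene passed. Over all genes, 111 were lower in that fit.

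**Figure D2:**
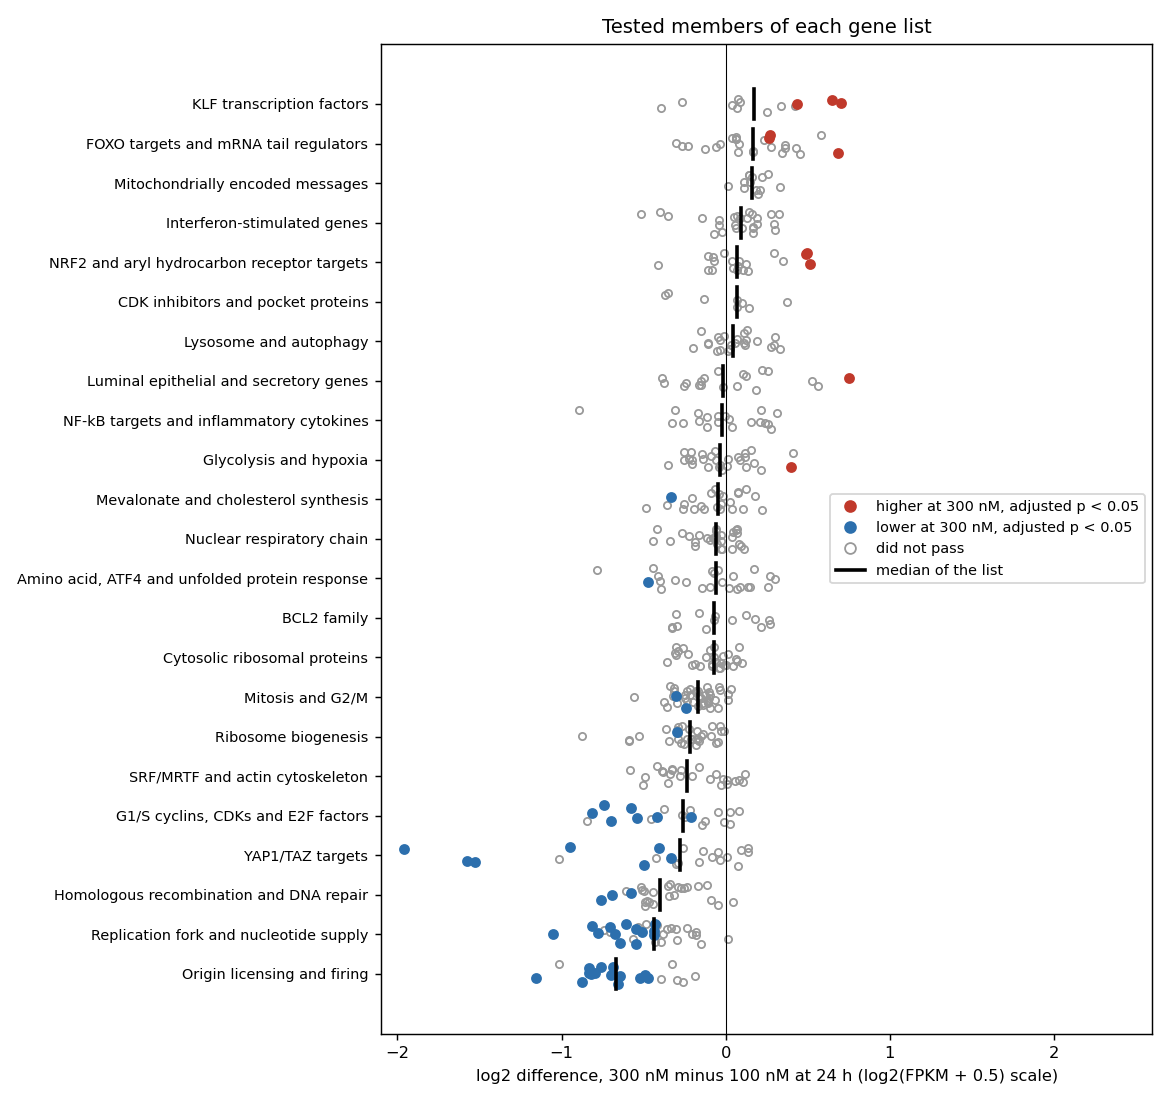
Log2 change of 300 nM against 100 nM at 24 h for each tested member of the gene lists drawn, 1 row a list; filled points passed the test (adjusted p under 0.05). The origin licensing row lies wholly below 0 with 14 of 20 points filled, while the ribosomal protein row has none filled.

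RHOB had the largest rise. This small GTPase of endosomes and the plasma membrane stood at 75.5, 55.0 and 80.4 FPKM at 300 nM and 36.5, 34.1 and 29.8 FPKM at 100 nM. The groups did not overlap, and the log2 change was 1.05 ± 0.21 (adjusted p = 0.00204). RHOA, which drives actin stress fibres, stood at 568, 581 and 582 FPKM at 300 nM and 432, 445 and 454 FPKM at 100 nM (log2 change 0.38 ± 0.05, adjusted p = 3.63e-06). NET1, an exchange factor for RHOA that was on no list, rose by 0.50 (adjusted p = 0.001), and EZR, ezrin, which ties actin to the membrane, by 0.48 (adjusted p = 3.41e-06), with 204, 219 and 201 FPKM at 300 nM and 151, 153 and 144 FPKM at 100 nM. None of 24 SRF/MRTF and actin genes passed, while 3 were lower among libraries of the first type alone, where 575 of all 15866 genes were. The median log2 change of the 24 was -0.24 with all libraries and -0.07 without 300 nM replicate 2. MYL9, a myosin light chain, stood at 42.9, 28.5 and 43.0 FPKM at 300 nM and 54.5, 55.6 and 50.1 FPKM at 100 nM (adjusted p = 0.315, and 0.0115 among libraries of the first type alone). The summed level of that list was 2766 to 3729 FPKM in the 300 nM libraries and 3947 to 4190 FPKM in the 100 nM libraries.

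KLF factors, FOXO targets and aldo-keto reductases made up most of the other rises on the lists. Of 12 KLF factors 3 rose and none fell, where 0.353% of all genes rose. KLF6 stood at 71.9, 77.8 and 69.9 FPKM at 300 nM and 54.0, 53.9 and 54.1 FPKM at 100 nM (log2 change 0.43 ± 0.07, adjusted p = 3.07e-05). KLF3 rose by 0.70 (adjusted p = 0.00191, and 0.0562 without 300 nM replicate 2), and KLF9 by 0.65 (adjusted p = 0.03, which reached 0.253 without 300 nM replicate 2). KLF2 stood at 23.1, 11.3 and 26.8 FPKM at 300 nM and 16.5, 13.1 and 13.1 FPKM at 100 nM, with replicate 2 below all the others (log2 change 0.42 ± 0.40, adjusted p = 0.897). Of 26 FOXO targets and mRNA tail regulators 3 rose. TSC22D3, a glucocorticoid-induced leucine zipper protein, stood at 13.8, 11.3 and 13.8 FPKM at 300 nM and 7.56, 7.97 and 7.92 FPKM at 100 nM (log2 change 0.69 ± 0.14, adjusted p = 0.00154). TSC22D1 rose by 0.26 (adjusted p = 0.0014) and TXNIP, which binds thioredoxin and curbs glucose uptake, by 0.27 (adjusted p = 0.00249). Without 300 nM replicate 2 their adjusted p-values were 0.0546 for TSC22D1 and 0.0595 for TXNIP.

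Among 20 NRF2 and aryl hydrocarbon receptor targets, 3 rose and none fell, where 0.353% of all genes rose. They were the aldo-keto reductases AKR1C1 (log2 change 0.51, adjusted p = 0.00335), AKR1C2 (0.49, adjusted p = 0.00377, and 0.0503 without 100 nM replicate 3) and AKR1C3 (0.49, adjusted p = 0.00418, and 0.0906 without 300 nM replicate 2). These 3 are related copies of 1 gene family, so reads may be shared between them and they are not taken as 3 separate observations. AGR2, a disulfide isomerase of secretory epithelium, stood at 25.1, 25.2 and 25.8 FPKM at 300 nM and 15.2, 15.4 and 14.1 FPKM at 100 nM (log2 change 0.75 ± 0.12, adjusted p = 3.35e-05), the 1 call among 19 luminal and secretory genes. NOX5, a calcium-activated NADPH oxidase, stood at 14.7, 12.1 and 14.6 FPKM at 300 nM and 7.75, 8.00 and 7.89 FPKM at 100 nM (log2 change 0.76 ± 0.12, adjusted p = 5.99e-05). GJB2, connexin 26, rose by 0.62 (adjusted p = 0.00816, and 0.0625 without 100 nM replicate 1), and FERMT1, an integrin activator, by 0.51 (adjusted p = 0.001). ANGPTL2, a secreted angiopoietin-like protein, rose by 0.60 (adjusted p = 0.0186) and MALL, a membrane-raft protein, by 0.53 (adjusted p = 0.0303). Without 100 nM replicate 3 the adjusted p of ANGPTL2 reached 0.131, and 5 of the 6 left-out libraries ended the call of MALL. PLAC8, a small cysteine-rich protein that was on no list, stood at 3.69, 2.4 and 3.79 FPKM at 300 nM and 7.31, 7.14 and 6.27 FPKM at 100 nM (log2 change -0.99 ± 0.12, adjusted p = 5.13e-08).

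No member passed among 26 interferon-stimulated genes, 20 NF-kB targets, 24 lysosome and autophagy genes, 14 BCL2 family members, 30 genes of the nuclear respiratory chain or 30 cytosolic ribosomal proteins. Over all genes tested 0.353% rose and 0.813% fell. At those shares lists of this size hold few or no calls, so counts of 0 or 1 do not set these families apart. The medians of these lists lay between -0.07 and 0.09. Among libraries of the first type alone 3 of the 24 lysosome genes and 1 of the 20 NF-kB targets were higher. There 272 of all 15866 genes were higher, and the other lists just named had no call. In 24 amino acid and unfolded protein response genes PSAT1, a serine synthesis enzyme, fell by 0.47 (adjusted p = 0.00285), in 24 mevalonate genes ACAT2, the first thiolase of the path, by 0.33 (adjusted p = 0.0283, lost whichever library was left out), and in 28 glycolysis and hypoxia genes SLC2A3, a glucose carrier, rose by 0.40 (adjusted p = 0.00503, which reached 0.135 without 300 nM replicate 2). The 13 mitochondrially encoded messages all had a log2 change above 0, with a median of 0.16 and no call. Their summed level was 16756 to 20170 FPKM at 300 nM and 14015 to 17742 FPKM at 100 nM, and its part in the other results was not tested.

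The genes called between these doses lay to the same side of DMSO at the lower dose. In all 129 genes that fell, the 100 nM mean lay below the DMSO mean at 24 h, and in all 56 that rose it lay above. Median log2 differences from DMSO were -0.67 at 100 nM, -1.21 at 300 nM and -1.31 at 1000 nM for the genes that fell, and 0.56, 0.90 and 0.99 for the genes that rose, beside 0.05, 0.05 and 0.03 for all genes tested. These differences share the 100 nM and 300 nM libraries with the step that chose the genes, so they are given side by side with no test. CYR61 averaged 224 ± 10.2 FPKM in DMSO (SD, n = 6), 64.5 FPKM at 100 nM, 16.2 FPKM at 300 nM and 12.2 ± 2.17 FPKM at 1000 nM (n = 3). RHOB averaged 5.78 ± 0.63 FPKM in DMSO, 33.5 ± 3.39 FPKM at 100 nM, 70.3 ± 13.5 FPKM at 300 nM and 74.9 ± 18.8 FPKM at 1000 nM. NOX5 averaged 0.894 FPKM in DMSO, 7.88 FPKM at 100 nM, 13.8 FPKM at 300 nM and 14.1 FPKM at 1000 nM. RRM2 averaged 54.9 FPKM in DMSO, 29.5 FPKM at 100 nM, 16.5 FPKM at 300 nM and 14.9 FPKM at 1000 nM.

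**Figure D3:**
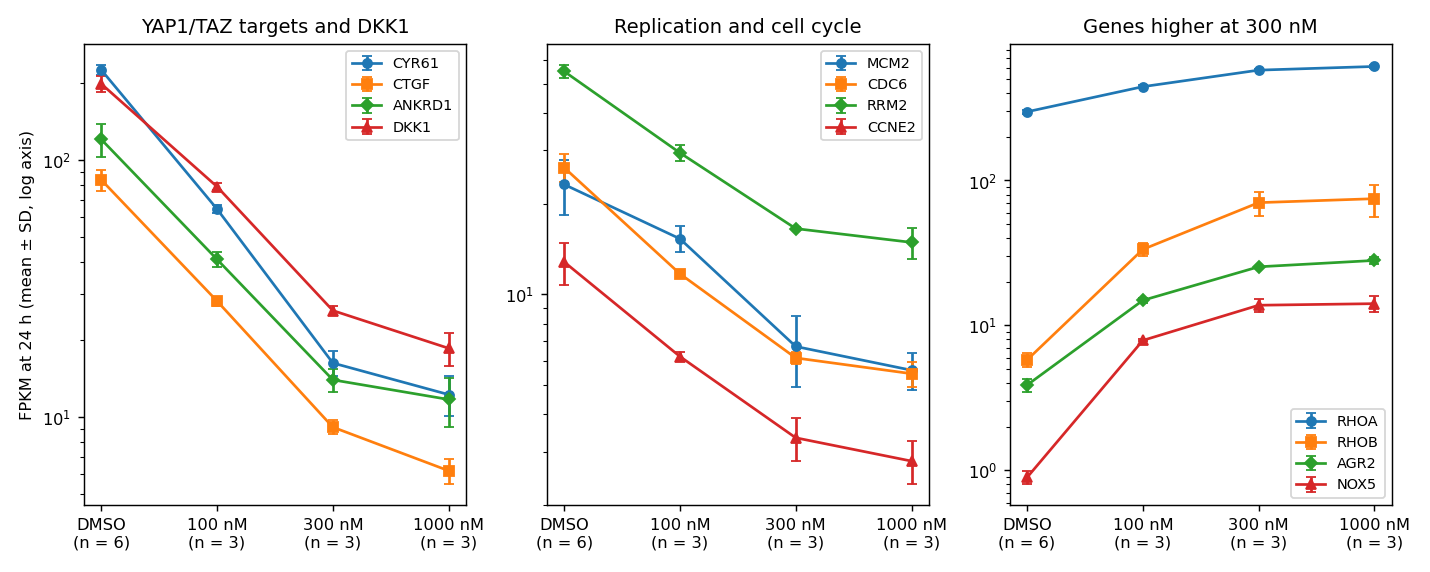
Mean FPKM with SD at 24 h in DMSO (n = 6) and at 100, 300 and 1000 nM (n = 3 each) on a log axis, for genes named in the text. CYR61 runs down to 16.2 FPKM at 300 nM and 12.2 FPKM at 1000 nM, and RHOB runs up to 70.3 and 74.9 FPKM, so most of the distance lies at or below 300 nM.

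The step above it held fewer calls. At 1000 nM against 300 nM 2 of 15866 genes passed (0.0126%), both lower: CTGF, by 0.53 ± 0.08 on the log2 scale (adjusted p = 0.000175), and DKK1, by 0.49 ± 0.08 (adjusted p = 0.000589). At an unadjusted p under 0.05 there were 852 genes, beside 1244 for the step from 100 nM. Chance alone passes about 1 in 20 genes at that threshold, and the upper step lay near that share. The median log2 change of the upper step was -0.09 in the genes that had fallen and 0.09 in those that had risen, beside -0.0046 over all genes tested. The 1000 nM mean lay beyond the 300 nM mean in 98 of the 129 and 47 of the 56, while all genes tested lay about evenly to either side of 0. A test of the difference between the steps (upper step minus lower step) called 14 genes (0.0882%), all with a positive value. They were CYR61 (1.56, adjusted p = 4.74e-10), ANKRD1 (1.26, adjusted p = 0.00271), DKK1, CTGF, FST, THBS1, CDC6, CDC45, ORC1, RRM2, MCM3, MCM4, FEN1 and the pseudogene CYCSP55. In all but CYCSP55 both steps were below 0 and the lower step was the larger fall. CYCSP55 fell by 1.27 in the lower step and rose by 1.16 in the upper. Because 300 nM enters the steps with opposite signs, an error in its mean moves both. Leaving out 1 library at a time kept 4 of the 14 in all 9 fits, CYR61, CTGF, DKK1 and FEN1, and the upper step has 1 library of the first type at 1000 nM, replicate 2, without which it called 92 genes.

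**Figure D4:**
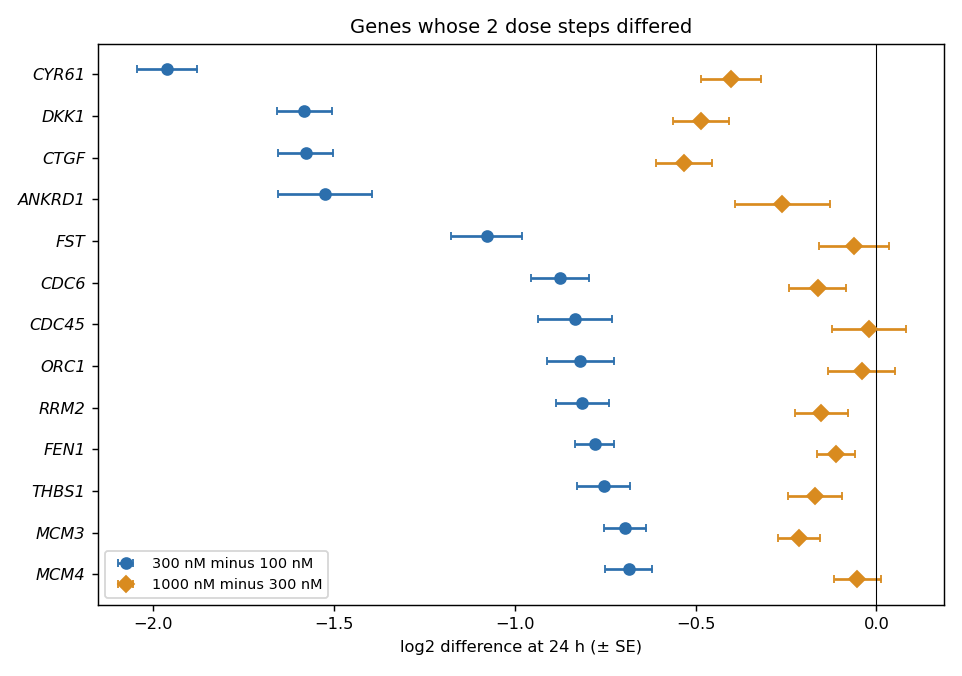
Log2 change with SE of 300 nM against 100 nM and of 1000 nM against 300 nM at 24 h, for 13 genes whose steps differed (adjusted p under 0.05). CYR61 has -1.96 for the lower step and -0.40 for the upper; each gene's lower step lies farther below 0.

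At 6 h the same dose step was nearly without calls. With separate libraries, 3 of 15866 genes passed at 300 nM against 100 nM (0.0189%), all lower, and 195 had an unadjusted p under 0.05. That is less than the 1 in 20 that chance alone passes, so the test was conservative here. The counts at 6 h and 24 h therefore do not compare on equal terms. Replicate 1 at 300 nM for 6 h is of the second library type, and the first type alone called 5 genes. CYR61 averaged 63.0 ± 3.88 FPKM at 300 nM and 93.3 ± 5.40 FPKM at 100 nM at 6 h (log2 change -0.56 ± 0.08, adjusted p = 0.000356). CTGF fell by 0.45 (adjusted p = 0.00451) and DKK1 by 0.43 (adjusted p = 0.00506). Leaving out 300 nM replicate 2, 100 nM replicate 1 or 100 nM replicate 2 at 6 h left CYR61 as the 1 call. Of the genes that fell at 24 h, 85 of 129 had a log2 change below 0 at 6 h, with a median of -0.04, and 48 of the 56 that rose were above 0, with a median of 0.05. Over all genes tested 52.6% were below 0 at 6 h.

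The dose step differed between the times in 37 genes (0.233%), 34 with a lower and 3 with a higher value at 24 h than at 6 h (24 h minus 6 h). CYR61 differed by -1.40 (adjusted p = 1.84e-11), ANKRD1 by -1.26 (adjusted p = 2.83e-05), DKK1 by -1.15 (adjusted p = 2.84e-10) and CTGF by -1.13 (adjusted p = 4.58e-10). Of the 20 origin genes 9 were among the 37, as were 5 of the 32 fork genes, and the median step of these lists at 6 h was 0.01 for origins and 0.03 for forks. RRM2 had a log2 change of 0.03 at 6 h and -0.81 at 24 h, a difference of -0.84 (adjusted p = 4.54e-07). MCM3 differed by -0.68 (adjusted p = 4.16e-07) and FEN1 by -0.70 (adjusted p = 1.84e-08). The 3 higher at 24 h were RHOA (0.36, adjusted p = 0.0104), FAXDC2, a fatty acid hydroxylase family member (0.97, adjusted p = 0.0168), and EZR (0.40, adjusted p = 0.0417), and each lost its call when 1 of the 12 libraries was left out, with adjusted p-values that reached 0.0554, 0.173 and 0.197 in that order of genes. RHOB had a log2 change of 0.23 at 6 h, and its difference did not pass (0.82, adjusted p = 0.807). In the whole set, 22 of the 37 were called in all 12 such fits.

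**Figure D5:**
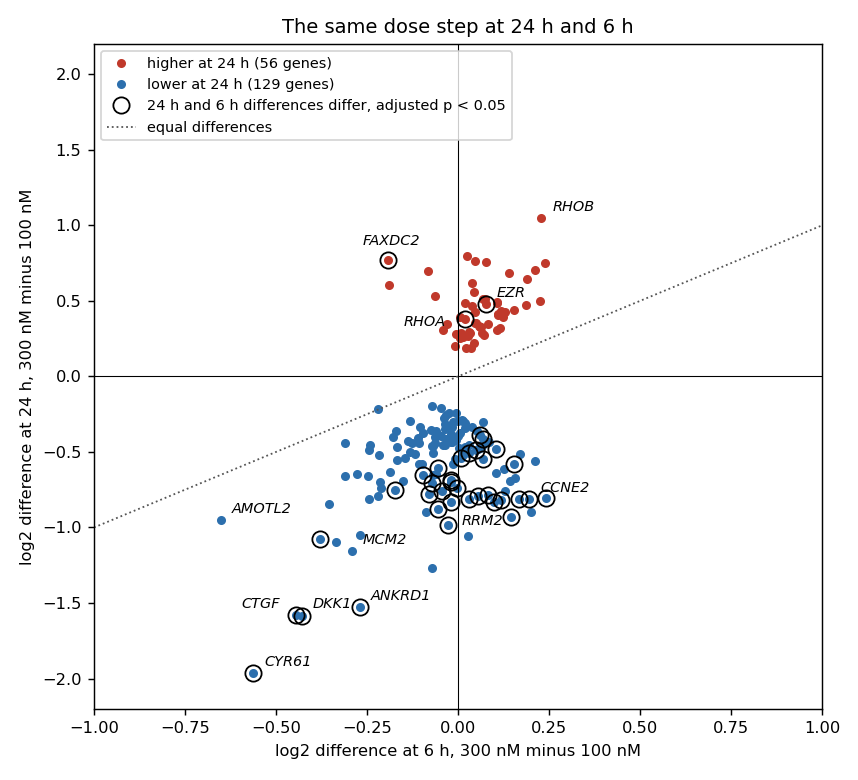
Log2 change of 300 nM against 100 nM at 24 h (vertical) and at 6 h (horizontal) for the 185 genes called at 24 h; rings mark genes whose steps differed between the times, and the dotted line marks equal steps. Most points lie near 0 at 6 h while CYR61, CTGF and DKK1 lie to the left of it.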

How the data were processed

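RNA-seq of MDA-MB-231 cells gave 60 libraries in 16 groups, prepared as stranded poly(A) libraries and read from 1 end per the labels' protocols. The submitters' processing notes name STAR 2.4.2a, featureCounts 1.4.6-p2 (Subread), DESeq2 and the build hg19. Which annotation was counted is not given in the sources. The authors deposited log2(FPKM + 1) for 38342 gene names. The planned tests took FPKM, to which the deposited log2 values were returned first.

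Genes reaching 1 FPKM in 3 or more libraries, 15866 in all, entered limma 3.58.1 (R 4.3.3) on log2(FPKM + 0.5), with 1 mean a group over the 60 libraries, 44 residual degrees of freedom, a variance trend and robust variances. Log2 changes are on that scale, which understates the change of low genes, and carry limma's standard error. A Benjamini-Hochberg adjusted p under 0.05 was called. The fit was tested on simulated data that held no library types, so that test does not cover their effect. Whole reads, recovered from the steps in the FPKM, were within 0.01 of a whole number for 100% of values above 0. Depth over the series was 0.475 to 86.5 M reads (median 11.2), and voom on these reads called 393 genes between the doses. Reads carry no molecular identifiers.

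The genes, gene lists and comparisons were chosen with earlier results of these data known. Named genes were the 10 highest and 10 lowest called changes with no overlap between the doses, a mean of at least 5 FPKM and no clone-style name, the 2 largest changes of each of 25 lists and a fixed set of 10. The other comparisons added up to 2 called genes in each direction. Others were chosen after their values were seen. The results of 2 lists and some single genes are left out here. RefSeq windows on GRCh38.p14 were matched by symbol for 9357 of 15866 names, and no hg19 coordinates were used. Alternatives were other pseudocounts, no filter, median-of-ratios scaling, array weights, the compared libraries alone and each library left out. Added after seeing the data were terms for the library types, the first type alone, no library under 2 M reads, voom, and array weights with type terms.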

Additional observations from a re-analysis of the deposited data

Results flagged for a closer look

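The dose step itself differed between 24 h and 6 h in 37 genes by a test of the difference (limma, Benjamini-Hochberg). Among the genes named by rule the log2 difference of the steps, 24 h minus 6 h, was -1.40 for CYR61, -1.26 for ANKRD1, -1.15 for DKK1, -1.13 for CTGF, -1.01 for CCNE2, -0.96 for PLAC8, -0.84 for RRM2, -0.82 for CDC6 and -0.70 for FST, and it was 0.40 for EZR and 0.36 for RHOA. With 1 of the 12 libraries left out, the adjusted p reached 0.0554 for RHOA, 0.0522 for FST, 0.197 for EZR and 0.344 for CCNE2.

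In the 6 DMSO libraries at 24 h, 11 named genes had a library far from the other 5, out of 65 genes looked at, and chance flags about 1 in 20. In 10 of them it was replicate 2, which has 0.475 M reads and belongs to the second library type. There FAM111B stood at 27.3 FPKM, PLAC8 at 20.4, EXO1 at 17.0, FST at 16.7, PSAT1 at 43.4, GJB2 at 8.51, ANKRD1 at 156 and EZR at 127, each the highest of the 6, while AURKB at 22.1 and MALL at 5.87 were the lowest. The other case was NOX5, at 1.08 FPKM in replicate 5 and 0.817 to 0.89 in the others. These libraries enter the DMSO means given beside the doses, and the shared spread, but not the contrast of 300 nM with 100 nM.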

How the results depend on the processing

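The 185 called genes of the step from 100 to 300 nM became 2252 with array weights, 4 with only the libraries compared, 641 with library type terms, 847 with the first library type, 393 with voom, 3341 with array weights and type terms, and 122 to 167 with 1 library left out. Pseudocounts of 0.1 and 1, no filter, median-of-ratios scaling and dropping libraries under 2 M reads gave 198, 188, 232, 183 and 179. The 2 calls of 1000 nM against 300 nM became 5 at a pseudocount of 0.1, 61 without the filter, 7541 with array weights, 0 with only the libraries compared (limma; 158 at an unadjusted p under 0.05, and 2 by voom on all libraries), 8 with type terms, 5 without shallow libraries, 68 with weights and type terms, and 2 to 92 leaving out 1 library. The 3 calls at 6 h became 10 without the filter, 31 with array weights, 0 with only the libraries compared (limma; 374 unadjusted, and 3 by voom), 5 with the first type, 16 with weights and type terms, and 1 to 3 leaving out 1 library. The 37 genes that differed between the times became 1009 with array weights, 11 with only the libraries compared, 149 with type terms, 191 with the first type, 94 with voom, 1581 with weights and type terms, and 26 to 41 leaving out 1 library. The 14 genes that differed between the dose steps became 58 without the filter, 5627 with array weights, 0 with only the libraries compared (limma; 226 unadjusted, and 12 by voom), 35 with type terms, 9 without shallow libraries, 539 with weights and type terms, and 5 to 21 leaving out 1 library. The cause was not tested.

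The 65 named genes include many that were not called. With only the libraries compared 28 of them lost their call, and of those called CYR61, CTGF, DKK1 and ANKRD1 alone kept it. Of the 65, 5 changed sign somewhere, none of them called. IRF7 (-0.51) was 0.22 with array weights, 0.14 with the first type or without shallow libraries, 0.0256 with voom, 0.18 with weights and type terms, and -0.88 to 0.14 leaving out 1 library. IFI6 (-0.40) was 0.17 with array weights, 0.055 with the first type or without shallow libraries, 0.12 with weights and type terms, and -0.68 to 0.055 leaving out 1 library. BAX (-0.32) was 0.0331, 0.0348 and 0.0134 in these settings and -0.53 to 0.0348 leaving out 1 library. RELB (-0.33) was 0.0528 with array weights and 0.017 with type terms added, and NDUFS7 (-0.42) was 0.10 and 0.0158. The highest of each leave-one-out range came without 300 nM replicate 2. No paired analysis was possible because the replicate numbers follow accession order and pair nothing. Replicate 2 at 300 nM, with 1.89 M reads, was the shallowest of the 6, so counting error is largest there. It is also of the second library type, and the part of depth or type in these sign changes was not tested.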

Other observations

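Outside the gene lists 41 genes rose and 76 fell. The genes named here were chosen after their values were seen. DTL, which targets the licensing factor CDT1 for destruction, stood at 5.89, 8.40 and 5.71 FPKM at 300 nM and 11.7, 11.6 and 11.8 FPKM at 100 nM (log2 change -0.78 ± 0.12, adjusted p = 2.13e-05). UNG, the uracil glycosylase of base excision repair, stood at 20.5, 17.8 and 20.5 FPKM at 300 nM and 31.0, 31.1 and 30.6 FPKM at 100 nM (log2 change -0.65 ± 0.11, adjusted p = 0.000119). The condensin subunits NCAPD3, NCAPH and NCAPD2 fell by 0.39, 0.34 and 0.28 on the log2 scale, although NCAPH reached an adjusted p of 0.0614 and NCAPD2 of 0.175 when 1 library was left out. HBEGF, an EGF receptor ligand, fell by 0.40 (adjusted p = 0.00237) and BDNF, a neurotrophin, by 0.45 (adjusted p = 0.000966).

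CTNNA1, alpha-catenin, stood at 114, 131 and 110 FPKM at 300 nM and 92.4, 94.5 and 91.7 FPKM at 100 nM (log2 change 0.35 ± 0.08, adjusted p = 0.00689, and 0.159 without 300 nM replicate 2). CTNND1, p120-catenin, rose by 0.29 (adjusted p = 0.033), a call that 4 of the 6 left-out libraries ended. ERRFI1, a feedback inhibitor of the EGF receptor, rose by 0.29 (adjusted p = 0.00227), and MYO1E, a class I myosin, by 0.49 (adjusted p = 0.000803). YWHAH, a 14-3-3 protein, stood at 118, 127 and 113 FPKM at 300 nM and 85.9, 90.6 and 89.3 FPKM at 100 nM (log2 change 0.43 ± 0.08, adjusted p = 0.000663).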
